A study of Mus musculus with 4 samples.

Results

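The small nucleolar RNAs (snoRNAs) measured here are the genes that GENCODE release M21 types as snoRNA and whose deposited mean over all libraries was 5 or more. There were 222 such genes, of 337 snoRNA genes in the deposited table of 20065 genes and of 1507 in the annotation. The libraries came from cultured muscle stem cells (MuSC, satellite cells) of limb and trunk muscles of adult C57BL/6 mice, 2 from control and 2 from Prmt5sKO cultures. The sample titles call the controls WT and do not give their alleles. The paper defines its controls as Pax7CreERT2/Prmt5+/loxP and Prmt5sKO as Pax7CreERT2/Prmt5loxP/loxP. By that definition both groups carry the tamoxifen-inducible Cre of the Pax7 locus, and the controls also carry 1 floxed allele. Both were treated with tamoxifen (TAM) according to the labels, and the study's methods describe 4-OH-TAM given to the cultured cells. Recombination is limited to cells that use the Pax7 promoter. The comparison asks which RNAs depend on Prmt5, an arginine methyltransferase, in these cells. Nothing in the labels says that the 2 libraries of a group came from separate mice, so that p-values measure the spread between these libraries, which may be technical.

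snoRNAs are short, stable RNAs of the nucleolus that work as guides in complexes with proteins (snoRNPs). C/D snoRNAs, with symbols in Snord, carry a C box near the 5′ end and a D box near the 3′ end, and guide the methyltransferase fibrillarin to riboses of ribosomal and spliceosomal RNA. H/ACA snoRNAs, with symbols in Snora, end in an ACA box and guide the pseudouridine synthase dyskerin. A few, such as U3, U8 and U14, take part in cleavage of the ribosomal RNA precursor instead of, or besides, modifying it. Most mammalian snoRNAs are cut out of introns of host genes, many of which code for ribosomal proteins.

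Of the 222 genes, 47 were Snord, 25 Snora, 135 carried only a provisional Gm symbol and 15 had other names, among them 4 with microRNA symbols (Mir1949, Mir3068, Mir3096 and Mir677) and 2 with small Cajal body RNA symbols (Scarna9 and Scarna10). The median annotated length was 81 bases for Snord, 132 for Snora and 130 for Gm genes. The genes just inside the threshold were Gm25763 with a deposited mean of 5.42 and Gm22771 with 5.47, and just outside it were Gm23123 with 4.88 and Gm22499 with 4.88. To see what the unnamed genes are, the letters of the boxes were searched on the transcribed strand only. GATG within the first 30 bases together with CTGA within the last 20 is called C/D letters here, and ACA at bases 6 to 4 from the 3′ end is called ACA letters. C/D letters were present in 44 of 47 Snord and 0 of 25 Snora genes, and ACA letters in 0 of 47 Snord and 22 of 25 Snora genes. Of the 135 Gm genes, 37 had C/D letters, 65 had ACA letters, 3 had both and 30 had neither. Over all 1507 annotated snoRNA genes the shares were 24.8% with C/D letters alone and 18.0% with ACA letters alone, against 40.1% and 39.6% of the 222 measured here. Symbol and letters thus sorted most named genes alike, and the letters put 102 Gm genes on one side or the other.

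The sequences below, from the GENCODE M21 transcripts (GRCm38, 5′ to 3′, T for U), show the C/D type. They are 2 abundant C/D snoRNAs and the 2 Snord genes with the largest log2 fold changes among those with a mean of at least 50 normalized counts and no overlap between groups. Capitals mark the GATG and CTGA letters.
Snord49b: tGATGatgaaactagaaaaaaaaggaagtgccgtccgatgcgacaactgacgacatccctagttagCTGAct
Snord35a: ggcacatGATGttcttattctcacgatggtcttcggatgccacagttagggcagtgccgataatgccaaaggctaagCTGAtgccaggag
Snord7: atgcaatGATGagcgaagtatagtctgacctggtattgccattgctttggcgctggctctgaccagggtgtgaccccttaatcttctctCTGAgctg
Snord23: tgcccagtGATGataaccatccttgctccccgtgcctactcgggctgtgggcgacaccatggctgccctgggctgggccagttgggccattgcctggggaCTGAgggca
Snord7 lies at chr11:83294304-83294400 on the plus strand within AA465934.

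The ACA type is shown by the abundant Snora31 and by 3 genes that were higher in both Prmt5sKO libraries. Capitals mark the ACA letters.
Snora31: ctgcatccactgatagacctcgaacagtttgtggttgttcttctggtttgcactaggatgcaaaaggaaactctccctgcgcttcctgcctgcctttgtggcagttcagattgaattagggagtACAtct
Gm26205: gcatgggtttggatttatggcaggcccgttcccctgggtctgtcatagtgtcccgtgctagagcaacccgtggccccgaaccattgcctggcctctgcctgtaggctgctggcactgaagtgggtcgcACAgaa
Gm24620: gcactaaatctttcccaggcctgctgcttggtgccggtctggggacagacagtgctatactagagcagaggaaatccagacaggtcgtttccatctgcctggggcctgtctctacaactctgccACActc
Gm24119: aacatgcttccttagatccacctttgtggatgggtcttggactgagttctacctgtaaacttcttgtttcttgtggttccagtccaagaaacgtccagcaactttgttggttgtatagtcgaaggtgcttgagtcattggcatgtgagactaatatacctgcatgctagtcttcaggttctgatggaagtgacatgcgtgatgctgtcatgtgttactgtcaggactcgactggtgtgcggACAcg
Gm26205 (ENSMUSG00000064841, chr5:121205010-121205143, plus strand, within Rpl6) and Gm24620 (ENSMUSG00000064558, chr13:46767520-46767649, minus strand, within Kif13a) have the letters in the window searched. In Gm24119 (ENSMUSG00000077167, chr10:91118291-91118536, minus strand, within Slc25a3) they lie 5 to 3 bases from the annotated 3′ end, 1 base outside that window, so that it counts among the genes with neither.

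Before the groups are compared, the libraries have to be set side by side, because the 2 libraries of each group differed in snoRNA. The deposited group means were resolved into whole read counts of single libraries, which are called deeper and shallower by their totals, and counts were scaled by TMM to give normalized counts. Values of single libraries are listed below with the deeper library of a group first. Totals ranged from 13240754 to 20047430 reads counted to genes, which are fewer than the reads sequenced. Deeper and shallower, and the shares of a library below, thus refer to counted reads. snoRNA reads made up 2.45% of the deeper control library (Wilson 95% interval 2.44 to 2.45), 0.992% of the shallower control library (0.986 to 0.997), 2.34% of the deeper Prmt5sKO library (2.33 to 2.34) and 4.10% of the shallower Prmt5sKO library (4.09 to 4.11). These intervals cover counting error only. The share was therefore lowest in one control and highest in one Prmt5sKO library, while the other control and the other Prmt5sKO library lay close together. On the TMM scale the share was 1.76 ± 0.983% in control and 3.14 ± 1.41% in Prmt5sKO libraries (SD, n = 2 each). The difference of 1.38 percentage points had an exact two-sided permutation p of 0.667, in a design whose smallest possible p is 0.3333. As a check of the labels, Prmt5 itself reached normalized counts of 2260 and 2941 in control but of 243 and 202 in Prmt5sKO. The 7 myogenic markers summed to 42077 to 48244 normalized counts in 3 libraries and to 72919 in the shallower Prmt5sKO library, where the muscle genes Des, Cdh15 and Itga7 were highest. Of 3 haematopoietic markers only Cd68 was in the table, at 98.9 and 113 normalized counts in control and 54.7 and 50.3 in Prmt5sKO. The 3 endothelial markers summed to 110 and 138 in control and to 47.3 and 27.1 in Prmt5sKO. Pecam1, Cdh5 and Kdr were each lower in both Prmt5sKO libraries, as Cd68 was and as 23.9% of all genes were. The 3 fibro-adipogenic markers summed to 273 and 99.7 in control and to 586 and 318 in Prmt5sKO. Of the latter, Cd34 ranged from 24.9 in the shallower control to 538 in the deeper Prmt5sKO library. The paper lists CD34 among its markers for sorting MuSC, so that this sum does not measure fibro-adipogenic cells alone. Pdgfra and Ly6a overlapped between the groups, with log2 fold changes of -0.52 and -1.01. What part these differences have in the snoRNA values was not tested, and in bulk RNA fewer cells of a type cannot be told apart from less RNA per cell.

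**Figure D1:**
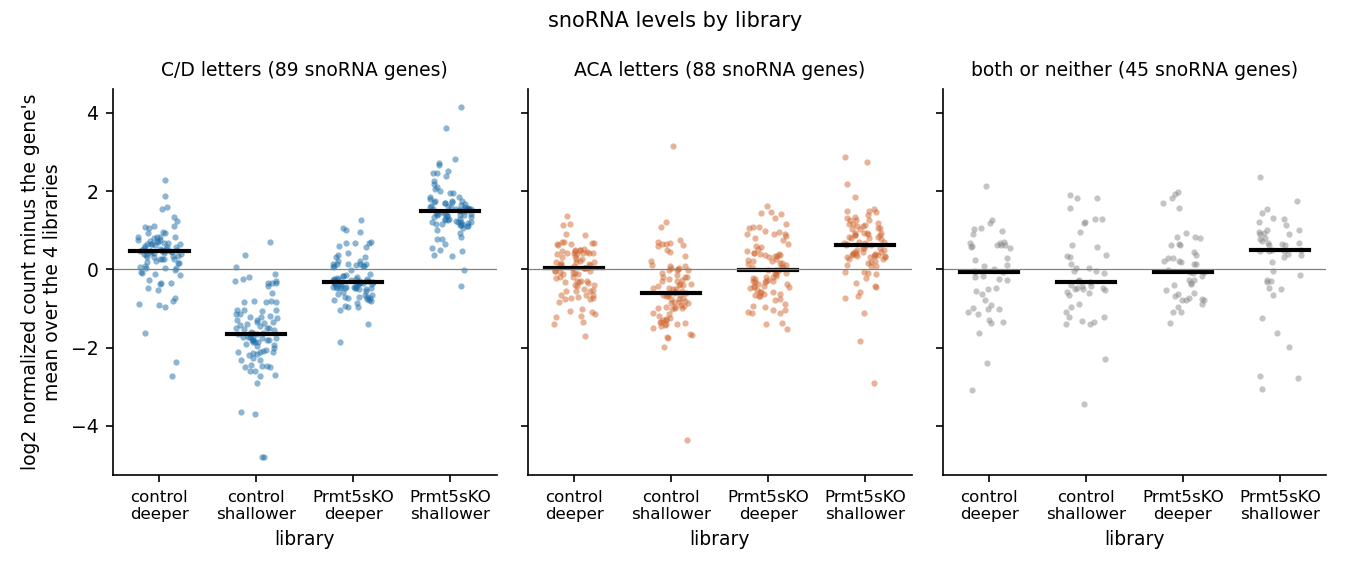
Each point is 1 snoRNA gene in 1 library, placed on the vertical axis by its log2 normalized count minus its own mean over the 4 libraries, and the black bars are medians. With C/D letters (89 genes, left) the medians run from -1.65 in the shallower control to 1.49 in the shallower Prmt5sKO library, and with ACA letters (88 genes, middle) from -0.61 to 0.62.

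The spread between the libraries of a group was larger for the C/D than for the ACA type. The 89 genes with C/D letters had a median difference of 2.12 on the log2 scale (4.35-fold) between the deeper and the shallower control library, and 81 of them were higher in the deeper one. Between the Prmt5sKO libraries it was 1.82 (3.54-fold), with 87 of 89 higher in the shallower one. Both differences together held for 80 of the 89, against 27.3% of all genes tested. For the 88 genes with ACA letters the medians were 0.47 and 0.70, and 40 of 88 showed both. Protein-coding genes had medians of 0.00 and -0.02. The unnamed genes divided in the same manner: both differences held for 30 of the 37 Gm genes with C/D letters and for 29 of the 65 with ACA letters. Snord genes by name gave 46 of 47, and Snora genes 14 of 25.

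C/D snoRNAs are shorter than H/ACA snoRNAs, and length moved with the same measure. The 56 snoRNA genes of up to 80 bases had medians of 2.18 between the control and 1.95 between the Prmt5sKO libraries, and the 75 genes of over 130 and up to 150 bases had 0.65 and 0.54. Only 12 genes with C/D letters were longer than 100 bases, and these had medians of 1.76 and 0.98. Across the 222 genes Spearman's rho with length was -0.39 for the control and -0.50 for the Prmt5sKO difference, as a description of genes that share libraries and depth. The 122 small nuclear RNA (snRNA) genes, spliceosomal RNAs that are also short, had medians of 1.94 and 0.95 on the same scale. Other classes of short RNA had smaller medians. They were 0.62 and 0.78 for 19 small Cajal body RNA genes, and -0.001 and 0.16 for 97 microRNA genes. The 65 genes typed as miscellaneous RNA had 0.23 and 0.26, and the 20 protein-coding genes under 400 bases had -0.14 and 0.01. What part RNA length or class has in the snoRNA values was not tested. The most frequent order of the 4 libraries, shallower control, deeper Prmt5sKO, deeper control and shallower Prmt5sKO from low to high, was that of 78 of the 222 snoRNA genes (35.1%) and of 5.23% of all genes tested. It held for 60 of the 89 genes with C/D letters and 11 of the 88 with ACA letters. In that order the groups overlap.

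**Figure D2:**
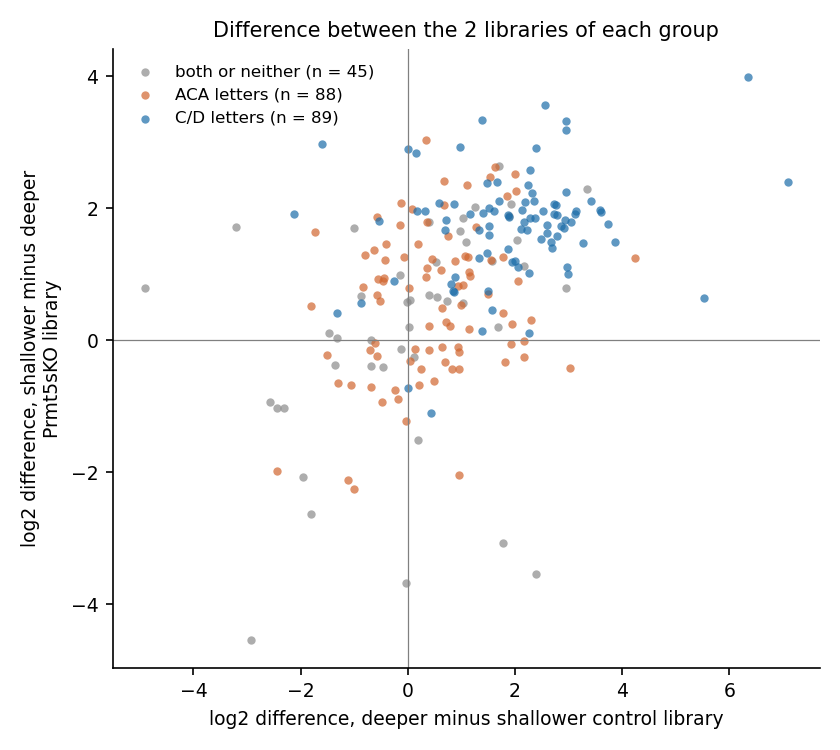
Each point is 1 snoRNA gene, with the log2 difference between the deeper and shallower control libraries on the horizontal axis and between the shallower and deeper Prmt5sKO libraries on the vertical axis. Of the 89 genes with C/D letters (blue), 80 lie in the upper right quadrant, as do 40 of the 88 with ACA letters (orange).

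The most abundant snoRNA by count was Rnu3a, 1 of the genes for U3, which is needed for the first cleavages of the ribosomal RNA precursor. It stood at 36415 and 25213 normalized counts in control, and at 30926 and 70100 in Prmt5sKO, so that the groups overlapped. Next came Gm24119 with 9435, 8231, 81832 and 28780 in the same order, in which both Prmt5sKO libraries lay above both controls. Snord55 had 24551, 6591, 15513 and 56824, a range of 8.62-fold. Snord83b of Rpl3 (26079, 8589, 10491 and 40660), Snord49b (17274, 2242, 4878 and 23152) and Snord35a of Rpl13a (14833, 2659, 6575 and 18989) had the same order of libraries as Snord55. Set per 100 bases, the mean normalized count over the 4 libraries was 32746 for Snord55, 22824 for Snord83b, 19002 for Rnu3a, 16509 for Snord49b and 13036 for Gm24119. Per length, the C/D snoRNA Snord55 therefore stood above the U3 gene Rnu3a in counted reads. Rnu3a is only 1 of the U3 genes, so that this does not rank U3 RNA as a whole. Whether counts per length rank RNAs this short was not tested. The 10 highest genes held 44.5% to 57.9% of all snoRNA counts of a library.

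Among genes with a Snora symbol the highest by count was Snora31 of Tpt1, with normalized counts of 12007 and 3316 in control and of 5254 and 23799 in Prmt5sKO. Snora7a of Rpl32 had 4931, 1677, 4757 and 11025, again with overlapping groups. Snora21 of Rpl23 had 2388, 1693, 6114 and 4011, and here the Prmt5sKO libraries were both higher. Snora74a, Snora23 and Snora57 complete the 6 highest Snora genes by count, with log2 fold changes of -0.26, -0.23 and 0.99. Snora57 did not overlap between the groups, at 4292 and 2096 against 4442 and 7936 normalized counts, whereas Snora74a and Snora23 did. The other Gm genes of high count were Gm26205, Gm24494 of Rabggtb (12397, 2043, 6574 and 22180), and Gm24044 and Gm26448, both within Rpsa, with log2 fold changes of 0.09 and 0.20. Both Rpsa genes varied less than 2-fold between libraries. Among the genes with other names, Mir1949 (4323, 2113, 2143 and 3185) and Scarna10 (3478, 1927, 1984 and 3316) came next to Rnu3a by count, and their log2 fold changes were -0.21 and -0.01.

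Between the groups, the log2 fold changes of snoRNA genes centred above 0, with a median of 0.80 (1.74-fold) against 0.02 over the 16151 genes tested, but 0 genes passed the test. limma-voom with Benjamini-Hochberg adjustment called 0 of the 222 snoRNA genes, as it called 0% of all genes at a threshold of 0.05 on the adjusted p and of 2-fold on the change, and no snoRNA gene had an adjusted p below 0.195. Even the inactivated gene Prmt5, with a log2 fold change of -3.52, reached only an adjusted p of 0.192 in limma-voom, the smallest of all genes. The paper reports differential genes from its DESeq2 test at the same thresholds. A result of 0 called therefore does not show that snoRNA levels were unchanged. An unadjusted p under 0.05 was found for 23 higher snoRNA genes (10.4%, against 5.97% of all genes) and 1 lower (0.450%, against 7.03%). Both Prmt5sKO libraries lay above both control libraries for 61 snoRNA genes (27.5%, against 25.0% of all genes), and below both for 11 (4.95%, against 23.9%). Over all 222 genes the count of higher genes was thus near the background, and the count of lower genes was under it. Of the 61 higher genes, 28 are among the 65 that share a 40-base stretch with an annotated snoRNA gene elsewhere. The other 157 genes had 33 higher (21.02%, against 25.0% of all genes). The median standard error of a snoRNA gene was 0.80 on the log2 scale, against 0.37 for all genes.

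The median depended on which libraries were set against each other. It was 0.17 without the shallower control and 0.24 without the shallower Prmt5sKO library, and 1.27 and 1.45 without the deeper ones. For Snord genes it was 1.01 with all libraries, -0.02 without the shallower control and 0.06 without the shallower Prmt5sKO library, and 2.19 and 1.85 without the deeper control and deeper Prmt5sKO library. Snora genes had 0.71 with all libraries and a range of 0.10 to 1.32 with 1 library left out, and Gm genes 0.62 and a range of 0.16 to 1.06. The lowest of these values came without the shallower Prmt5sKO library for Snora and without the shallower control for Gm genes. The number of lower snoRNA genes was 22 to 44 with 1 library left out (9.91% to 19.8%, against 33.8% to 38.3% of all genes).

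Sorted by letters, the C/D type had the larger median with all libraries, but not with each library left out. For the 89 genes with C/D letters the median log2 fold change was 1.06, with 16 genes higher in both Prmt5sKO libraries (18.0%, against 25.0% of all genes) and 0 lower (against 23.9%). The 88 with ACA letters had a median of 0.62, with 33 higher (37.5%) and 5 lower (5.68%). Without the shallower control library the medians were 0.09 for C/D and 0.26 for ACA letters, and without the shallower Prmt5sKO library both were 0.29. Without the deeper control library they were 2.20 and 0.87, and without the deeper Prmt5sKO library 2.00 and 0.93. Of the 45 with both or neither, 12 were higher and 6 lower. By name, 8 of 47 Snord (17.02%), 9 of 25 Snora (36.0%), 39 of 135 Gm (28.9%) and 5 of 15 other genes (33.3%) were higher in both, against the same 25.0%, and 0, 1, 10 and 0 were lower. The difference between the types was not tested.

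**Figure D3:**
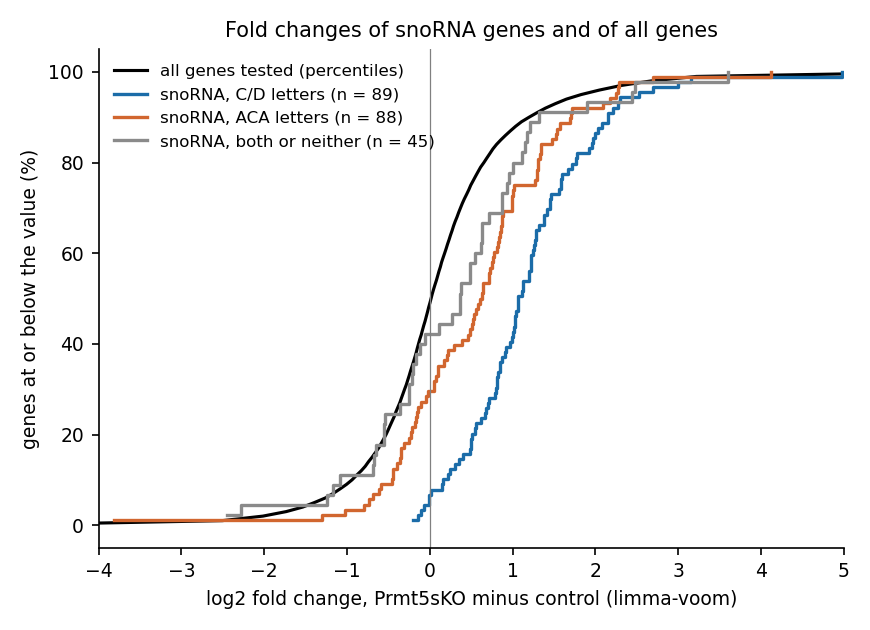
Cumulative share of genes (vertical axis, percent) at or below each log2 fold change of Prmt5sKO over control from limma-voom (horizontal axis), for all genes tested (black) and for snoRNA genes by box letters. The curves of C/D letters (median 1.06) and ACA letters (median 0.62) lie to the right of that of all genes (median 0.02), and 0 snoRNA genes passed the adjusted test.

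Some single genes did not overlap between the groups, although none passed the adjusted test. Snord7, Gm24620, Gm24119 and Snord23 were chosen by rule, among the 5 largest log2 fold changes of separated genes with a mean of at least 50. Their separation, and a positive value with any 1 library left out, thus follow from that choice. Of all genes, 25.0% were higher in both Prmt5sKO libraries. Snord7, whose RNA is known to guide modification of the spliceosomal U6 RNA, had normalized counts of 93.3 and 112 in control and of 604 and 1124 in Prmt5sKO. Its log2 fold change was 2.998 ± 0.52 (SE), 7.99-fold, with an unadjusted p of 0.00107 and an adjusted p of 0.207 in limma-voom. The value stayed between 2.56 and 3.47 with any 1 library left out. Its host AA465934 had 91.0 and 60.4 in control and 48.0 and 42.2 in Prmt5sKO, lower in both, with a log2 fold change of -0.72. Gene and host thus differed in sign.

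Gm24620, of the ACA type, had normalized counts of 151 and 247 in control and of 1291 and 1172 in Prmt5sKO. The 2 Prmt5sKO libraries were alike here, and the log2 fold change was 2.69 ± 0.32 (SE; adjusted p = 0.195 in limma-voom), or 2.32 to 3.03 with 1 library left out. Of its 40-base stretches, 28.6% occur in another annotated snoRNA gene. Its host Kif13a, a kinesin motor, had a log2 fold change of 0.40.

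Gm26205 had normalized counts of 4674 and 4049.9 in control and of 26270 and 16389 in Prmt5sKO, with a log2 fold change of 2.25 ± 0.28 (SE; adjusted p = 0.195 in limma-voom). It overlaps an exon of an Rpl6 transcript on its strand, and Rpl6 itself had 7928 and 8768 in control and 7470 and 7193 in Prmt5sKO libraries. Gm24119 had a log2 fold change of 2.45 ± 0.46 (SE; adjusted p = 0.217 in limma-voom), 1.72 without the deeper and 3.21 without the shallower Prmt5sKO library. It alone made up 23.6% of the snoRNA counts of the deeper Prmt5sKO library. Its host Slc25a3, the mitochondrial phosphate carrier, stood at -0.06. In both genes the deeper Prmt5sKO library was the higher one, which is opposite to most C/D snoRNAs.

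Snora68 had normalized counts of 972 and 627 in control and of 2682 and 2502 in Prmt5sKO. Its log2 fold change was 1.72 ± 0.27 (SE; adjusted p = 0.195 in limma-voom). Snora68 was picked after its values were seen, as the named H/ACA snoRNA of the smallest p. Snord23 of Nop53, a gene of ribosome assembly, had 362 and 121 in control and 912 and 1250 in Prmt5sKO, a log2 fold change of 2.30 ± 0.49 (SE). It was 3.13 without the deeper and 1.56 without the shallower control library. Snord17, the longest Snord gene at 238 bases, had 5146 and 2787 against 8153 and 15776 (log2 fold change 1.59 ± 0.42, SE).

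**Figure D4:**
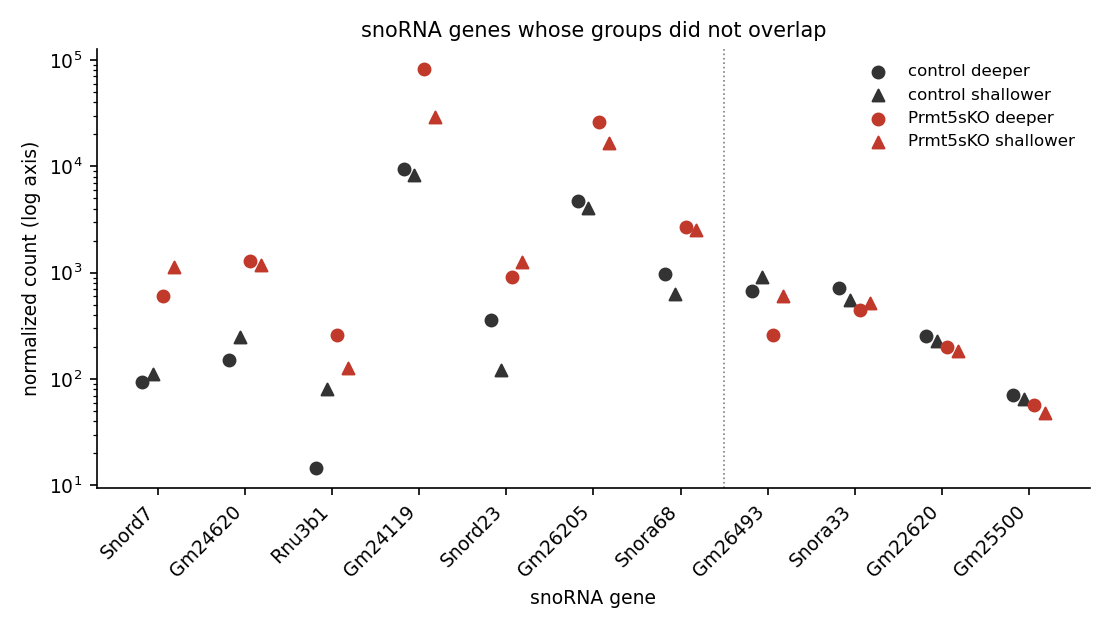
Normalized counts (log axis) of 11 snoRNA genes in the 2 control (black) and 2 Prmt5sKO libraries (red), with circles for the deeper and triangles for the shallower library of a group. In the 7 genes left of the dotted line both red points lie above both black ones, by 1.72 to 2.998 on the log2 scale in the fit, and in the 4 on the right they lie below.

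The snoRNA genes lower in both Prmt5sKO libraries numbered 11. Of these, 4 reached 50 normalized counts on average over the libraries. Gm26493 of Cnot1 had normalized counts of 675 and 906 in control and of 260 and 602 in Prmt5sKO, with a log2 fold change of -1.02 ± 0.42 (SE), and -0.36 without the deeper Prmt5sKO library. Snora33 of Rps12 had 726 and 553 against 450 and 523, at -0.40. The other two, Gm22620 and Gm25500, lie in Taf1d and stood at -0.31 and -0.36. The fifth smallest value among separated genes of that level was positive, 0.55 for Gm24336. The remaining 7 lower genes had means of 5.56 to 35.2 normalized counts and log2 fold changes of -3.81 (Gm22304) to -0.54 (Gm22077), with standard errors of 0.59 to 1.75. In 3 of them, Gm22304, Gm25763 and Gm25604, the shallower Prmt5sKO library had 0 reads, so that these fold changes rest on few reads.

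Some of these genes passed the test once a pairing was assumed or a library left out. In the fit with a replicate block in which each deeper library was matched to the shallower library of the other group, 6 snoRNA genes were called (2.70%, against 0.582% of all genes): Snord7, Snord17, Snord37, Snord87, Gm24620 and Gm26205. The labels do not say which libraries belong together, and with the deeper libraries paired 0 were called. Without the deeper Prmt5sKO library 16 were called (7.21%, against 2.51% of all genes), and without the shallower one 4 (1.80%, against 0.316%), which were Gm24119, Gm24620, Gm26205 and Gm26440. In these last fits the single remaining Prmt5sKO library is assumed to vary like the controls. Gm24620 and Gm26205 were in all 3 sets, which come from the same libraries and are not independent.

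snoRNAs that act in cleavage of the ribosomal RNA precursor did not move as 1 group. U8 (Snord118), required for the large-subunit RNAs, had normalized counts of 11873 and 4957 in control and of 2345 and 9552 in Prmt5sKO, with a log2 fold change of -0.68 ± 0.71 (SE). U13 (Snord13) had 2564, 437, 279 and 3319, at -0.21 ± 1.27 (SE), and spanned 11.9-fold between the Prmt5sKO libraries alone. U14 (Snord14a of Rps13) had 1108, 304, 573 and 2133, at 0.88 ± 0.80 (SE). E2 (Snora62 of Rpsa) had 1469, 938, 782 and 1101, at -0.35 ± 0.31 (SE). U3 from Rnu3a was at 0.63 ± 0.42 (SE). In each of these 5 the groups overlapped. Rnu73b, within Rps3a1, had been put on the list by its name, but at 71 bases with C/D letters it is not U17, the H/ACA RNA meant there. It stood at 1.28 ± 1.02 (SE), also with overlapping groups. Of the 21 names on the list, 9 were members and 12 were not.

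The U3 genes differed among themselves. Rnu3b1, Rnu3b2 and Rnu3b3 on chromosome 11 were higher in both Prmt5sKO libraries, at 14.6 and 81.4 against 259 and 127 normalized counts for Rnu3b1, 3.37 and 0 against 15.5 and 27.1 for Rnu3b2, and 20.2 and 32.8 against 96.0 and 96.5 for Rnu3b3. A count of 0 reads in the shallower control library allows up to 3 reads, or 3.94 normalized counts. The Rnu3b genes are near-identical copies in which 100% of 40-base stretches occur at another place in the annotation. Since only reads with a single position and a single gene were counted, according to the study's overview, the levels of the Rnu3b genes are uncertain. Each of the 4 U3 genes also has a second annotated record at the same place. Rnu3b1 was at 1.19 without the deeper and at 3.63 without the shallower control library. The sequences of Rnu3a and Rnu3b1, with capitals at the bases of Rnu3b1 that differ from Rnu3a in a global alignment, show how far the copies have moved apart.
Rnu3a: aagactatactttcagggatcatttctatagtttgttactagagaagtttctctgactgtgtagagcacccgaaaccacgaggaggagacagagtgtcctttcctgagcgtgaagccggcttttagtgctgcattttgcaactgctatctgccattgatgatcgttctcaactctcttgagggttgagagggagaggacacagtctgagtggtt
Rnu3b1: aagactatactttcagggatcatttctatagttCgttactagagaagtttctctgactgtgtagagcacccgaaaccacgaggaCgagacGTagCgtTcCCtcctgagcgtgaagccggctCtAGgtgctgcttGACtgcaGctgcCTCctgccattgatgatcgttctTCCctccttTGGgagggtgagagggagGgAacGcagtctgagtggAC
They share 187 of 219 aligned positions (85.4%). In Rnu3a 6.29% of 40-base stretches occur at another place, so that most of its reads can be told by sequence from those of other snoRNA genes. That share leaves out the second record at the same place, whose effect on the count was not tested.

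Of the 222 genes, 196 lie within 143 host genes on the same strand, and 38 lie within 23 genes for ribosomal proteins. Members of 1 host share a transcript and are not independent. Over the 192 with a tested host, Spearman's rho between the log2 fold changes of snoRNA and host was 0.21, as a description. The 140 tested hosts had a median of -0.18. Taf1d, which codes for a factor of RNA polymerase I transcription, held 8 snoRNAs whose log2 fold changes ran from -0.68 to 1.01 around a median of -0.25, and the host was at -0.37. Their differences between the libraries of a group went both ways. Gm24299 was 1.92 higher on the log2 scale in the deeper control and 2.07 higher in the shallower Prmt5sKO library, whereas for Gm22579 the same differences were -1.96 and -2.08. All 8 overlap an annotated Taf1d exon, 4 of them have ACA letters and 2 have both sets of letters. The 5 snoRNAs of Rpl4 had a median of 0.85, with the host at -0.08, and all 5 had C/D letters. In Rpl4 the highest was Snord16a, at 3262, 2007, 2685 and 8541 normalized counts. The 4 of Nop58, itself a core protein of C/D snoRNPs, had a median of 1.16, with the host at -0.23. All 9 genes of Rpl4 and Nop58 were highest in the shallower Prmt5sKO library and overlapped between groups.

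Many snoRNA genes share their place with another transcript. The 73 that overlap an exon of another gene record on the same strand centred on a log2 fold change of 0.83, and the 149 that do not on 0.78. The 65 that share a 40-base stretch with an annotated snoRNA gene elsewhere are harder to count, and 8 of them share all of it. Of these 65, 28 were higher in both Prmt5sKO libraries (43.1%) and 1 was lower. Of the 157 that share none, 33 were higher (21.02%) and 10 lower. The median log2 fold changes were 0.77 for the 65 and 0.81 for the 157.

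Tandem C/D snoRNAs of imprinted domains, best known from brain, were detected at low levels. Between Meg3 and Mirg on chromosome 12 there were 7, all with C/D letters, and between Snrpn and Ube3a on chromosome 7 there were 0 that reached the threshold. DQ267102 had normalized counts of 53.9 and 6.56 in control and of 24.4 and 249 in Prmt5sKO, and DQ267101 had 40.5, 0, 10.3 and 171. Gm23736 had 0 reads in both control libraries and 7.39 and 58.3 normalized counts in the Prmt5sKO libraries. All 7 were highest in the shallower Prmt5sKO library, and 2 (Gm22981 and Gm23736) were higher in both Prmt5sKO libraries (28.6%, against 25.0% of all genes). In each of these 2, 61.1% of 40-base stretches occur in another annotated snoRNA gene, and Gm22981 had only 5 and 2 reads in the control libraries. The long RNA Rian, which hosts DQ267101 and DQ267102 in the annotation, had 619 and 178 in control and 1008 and 1244 in Prmt5sKO libraries (log2 fold change 1.70 ± 0.52, SE; adjusted p = 0.299 in limma-voom). Meg3, from the same domain, had 365 and 76.1 against 609 and 837.

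Most genes for the proteins that bind or assemble snoRNAs had log2 fold changes below 0, with Rpap3 as the exception. In limma-voom 0 of the 20 genes for core and assembly proteins were called (smallest adjusted p 0.224). An unadjusted p under 0.05 was found for 6 of the 20, all lower, against 7.03% of all genes lower and 5.97% higher. Both Prmt5sKO libraries lay below both controls for 9 of the 20 (against 23.9% of all genes) and above for 0 (against 25.0%). Nop56 of the C/D core had normalized counts of 3988 and 4400 in control and of 2182 and 1972 in Prmt5sKO, with a log2 fold change of -1.01 ± 0.20 (SE). Fibrillarin (Fbl), the methyltransferase, had 1644 and 1749 against 1121 and 882, at -0.77 ± 0.22 (SE). Nop58 and Snu13 of the same core overlapped between the groups, at -0.23 and -0.10.

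The H/ACA core gave like values. Dyskerin (Dkc1) had normalized counts of 2318 and 2442 in control and of 1407 and 1210 in Prmt5sKO, at -0.87 ± 0.20 (SE). Gar1 had 818 and 923 against 484 and 379, at -1.01 ± 0.24 (SE). Nhp2 was lower in both at -0.46, and Nop10 overlapped at -0.15. Of 12 assembly and processing factors, Nolc1 (4309.7 and 4558 against 2774 and 2387), a chaperone of both snoRNP types, was lower in both. So was Ruvbl2 (3643 and 3701 against 2398 and 2427), an ATPase of snoRNP assembly, as were Ruvbl1 and Znhit6. Tgs1, which methylates the cap of U3, and the nuclear exosome subunit Exosc10 overlapped at -0.01 and -0.07. Of the 20 genes, Snu13 differed most between the libraries of a group, with 181 and 379 normalized counts in control and 338 and 158 in Prmt5sKO.

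**Figure D5:**
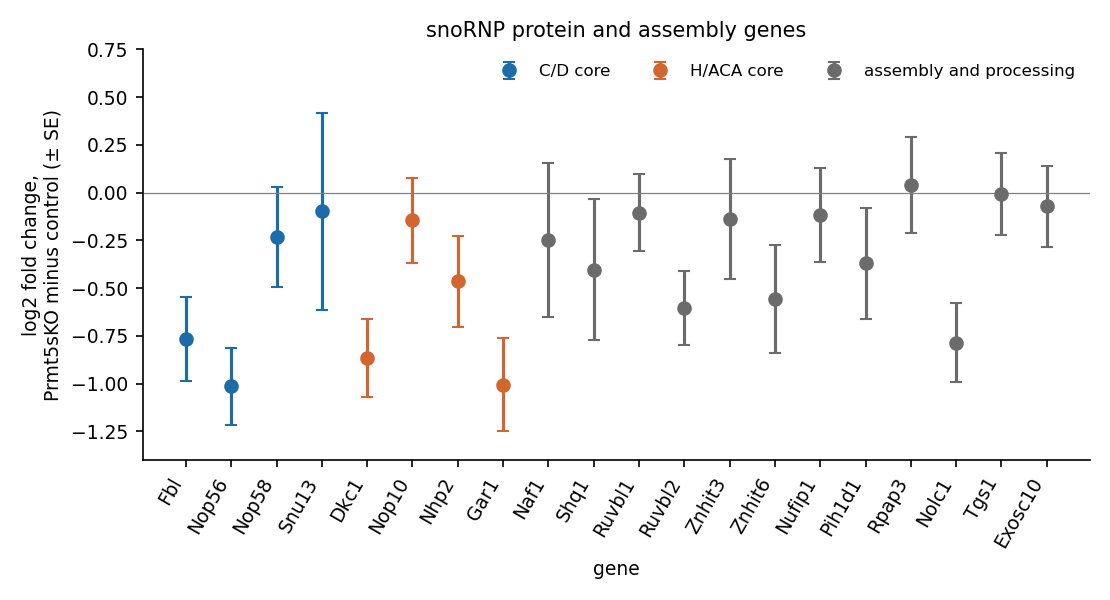
Log2 fold change of Prmt5sKO over control (vertical axis) with its standard error as bars, from limma-voom on 2 libraries per group, for 4 C/D core (blue), 4 H/ACA core (orange) and 12 assembly genes (grey). Nop56, Gar1 and Dkc1 are lowest, at -1.01, -1.01 and -0.87, and 0 of the 20 passed the adjusted test.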

How the data were processed

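RNA of cultured MuSC was depleted of ribosomal RNA and sequenced on the Ion Torrent Proton. The authors trimmed reads with Reaper, aligned them with STAR 2.4.0a to GRCm38 and used DESeq2. They deposited 1 table with signal values, which are group means of size-factor-normalized counts, and with their own log2 fold changes and p-values, which were not used. The whole counts of each library were recovered from the steps of the group means. Recovery gave 1 solution for 100% of genes. Tested on simulated libraries it returned 20065 of 20065 genes in each group.

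Genes with a deposited mean of at least 5 were compared by limma-voom (limma 3.58.1, R 4.3.3) with own TMM factors (trims of 30% and 5%), 2 libraries per group, and Benjamini-Hochberg adjustment over 16151 genes. The thresholds follow the study's methods. Differences between single libraries used log2(normalized count + 0.5). Exact permutation tests were two-sided. Gene types, positions and sequences came from GENCODE M21, which holds 19782 of the 20065 gene identifiers. Named genes are a list of snoRNAs of pre-rRNA cleavage, the highest by count (6 Snord, 6 Snora, 5 Gm and 3 other), the 5 largest and 5 smallest log2 fold changes among separated genes with a mean of at least 50, hosts of 4 or more members, imprinted domains and snoRNP genes. The members and lists were chosen with earlier results of these data known. Alternatives changed the scaling, the filter, the model, the pairing and the libraries. Library totals of 13240754 to 20047430 reads counted to genes set the counting error. Whether the counting used strand is not given in the sources used here. Some host genes and sequences are not reported here.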

Additional observations from a re-analysis of the deposited data

How the results depend on the processing

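The number of snoRNA genes called was 0 in limma-voom, with 24 at an unadjusted p under 0.05, and was also 0 under the authors' size factors, library size only, no filter, a mean of at least 20, limma-trend and the replicate block with the deeper libraries paired (20 to 33 at an unadjusted p under 0.05). It was 6 with the replicate block that paired deeper with shallower libraries, and 0 to 16 with 1 library left out. The labels and columns give no pairing. The median log2 fold change of all snoRNA genes was 0.77 to 0.92 under the scaling, filter, model and replicate block alternatives, and 0.17 to 1.45 with 1 library left out, with Snord genes at -0.02 to 2.19, Snora genes at 0.10 to 1.32 and Gm genes at 0.16 to 1.06. Library size only moved the median of all genes to 0.13. The median of the snoRNP protein genes was -0.31, and -0.62 to -0.21 with 1 library left out. The number of snoRNA genes higher in both Prmt5sKO libraries was 61 (27.5%, against 25.0% of all genes). Fewer libraries loosen this rule. The number was 73 without the shallower control (32.9%, against 35.4%) and 69 without the shallower Prmt5sKO library (31.1%, against 38.6%). It was 155 without the deeper control (69.8%, against 38.5%) and 167 without the deeper Prmt5sKO library (75.2%, against 39.5%). The number lower was 11 (4.95%, against 23.9%), and 22 to 44 with 1 library left out (9.91% to 19.8%, against 33.8% to 38.3%). It was 6 under library size only (against 18.2% of all genes) and 5 of 181 with a mean of at least 20. The difference in snoRNA percent of counts was 1.37 to 1.501 points under the scalings, and 0.382 to 2.37 with 1 library left out. The cause of these changes was not tested. With 2 libraries per group, only differences well over the spread between libraries could pass.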
